A study of Mus musculus with 24 samples.

Results

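The comparison described here is between mouse cells of the J1 line kept in the L-EPSC protocol and cells of the same line kept in the D-EPSC protocol, the published recipes for expanded potential stem cells (L-EPSCs) and extended pluripotent stem cells (D-EPSCs). It was chosen by sample label and rests on 4 of the 24 RNA-seq libraries of the series, 2 labelled L-EPSC and 2 labelled D-EPSC. The same table holds 2 libraries of J1 ESCs. A separate table holds conditional knockout (cKO) tet-off lines, in which the endogenous Oct4, Sox2 or Nanog gene is deleted. Each of these lines is kept by a transgene of the deleted gene, which doxycycline turns off. The study set both EPSC states against ESCs, and the question taken up here is how the protocols differ from each other, pathway by pathway.

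All J1 libraries are labelled wild type and untreated. J1 is a line of male mouse ESCs, and both kinds of EPSC were obtained by moving J1 cells into another medium. The L-EPSC medium is listed as DMEM/F12 with 20% KSR (a serum replacement), LIF and 6 small molecules, namely 3 µM CHIR99021 (a GSK3 inhibitor), 1 µM PD0325901 (a MEK inhibitor), 0.3 µM A-419259 (a Src family kinase inhibitor), 5 µM XAV939 (a tankyrase inhibitor), 4 µM JNK inhibitor VIII and 10 µM SB203580 (a p38 inhibitor). For D-EPSCs the list is an N2B27 base with 5% KSR, LIF, 3 µM CHIR99021, 2 µM dimethindene maleate (an antihistamine) and 2 µM minocycline hydrochloride (an antibiotic). The ESC medium held serum, LIF, 3 µM CHIR99021 and 1 µM PD0325901. Base medium, serum replacement and compounds therefore change together between the protocols and cannot be told apart. According to the methods the EPSCs had been without feeder cells for several passages before RNA was taken, while the labels list mouse embryonic fibroblasts or gelatin as the support for ESCs and L-EPSCs. Each state comes from a single line, and no source says that its 2 libraries are separate derivations, so the p-values below measure the spread between these libraries, which may be technical.

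Pluripotent cells are held in place by a small set of transcription factors and by the signals around them. ERK, switched on by FGF through MEK, induces its own feedback inhibitors of the Sprouty and DUSP families, and Wnt signalling, through β-catenin and TCF, induces feedback genes such as Axin2. Their RNAs are commonly read as a record of how active each pathway is.

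Reads on genes numbered 11612919 to 13186454 in the 4 EPSC libraries. Values below are normalized counts, that is, read counts divided by the DESeq2 size factor of the library, and differences are L-EPSC minus D-EPSC on the log2(normalized count + 1) scale with the standard error (SE) of the fit, n = 2 against 2. A gene was called when its limma adjusted p was under 0.05 and its log2 difference was beyond 0.6. A group whose libraries each held 3 reads or fewer of a gene is called at the floor, and its fold is then given as a lower limit. Gene positions are those of NCBIM37. Because these are bulk samples, fewer cells of a type and less RNA per cell cannot be told apart.

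Markers of pluripotent cells were found in both states, but they do not tell EPSCs from ESCs. All 12 pluripotent cell markers were detected in every library, with summed levels of 63341 and 64087 in L-EPSCs and 52890 and 53786 in D-EPSCs. Their sums in ESCs were higher, at 81966.5 and 82383. Markers of other cells were present as well and were unequal. The 14 fibroblast markers summed to 21704 and 22310 in L-EPSCs, to 62021 and 62274 in D-EPSCs and to 95587 and 97984 in ESCs, and none was at 0 in either EPSC group. Col1a1, a main chain of type I collagen, had 7277 and 7721 in L-EPSCs and 19651 and 20021 in D-EPSCs. The 12 macrophage markers summed to 17424 and 17565 in L-EPSCs, to 23142 and 23357 in D-EPSCs and to 2894 and 2906 in ESCs, again with none at 0 in either EPSC group. Most of that sum was Lyz2, the lysozyme of myeloid cells, with 13018 and 12965 in L-EPSCs and 15553 and 15802 in D-EPSCs. Both sets were thus lower in L-EPSCs, with 12 of 14 fibroblast and 7 of 12 macrophage markers called lower, beside 8.58% of all genes tested. Itgam, another macrophage marker, was the 1 called higher, beside 4.80% of all genes. Itgam lost that call when any 1 of the 6 J1 libraries was left out, with adjusted p of 0.0523 to 0.247 in limma. The macrophage markers called lower were 4, 4 and 3 without D-EPSC replicate 1, D-EPSC replicate 2 and L-EPSC replicate 1.

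**Figure D1:**
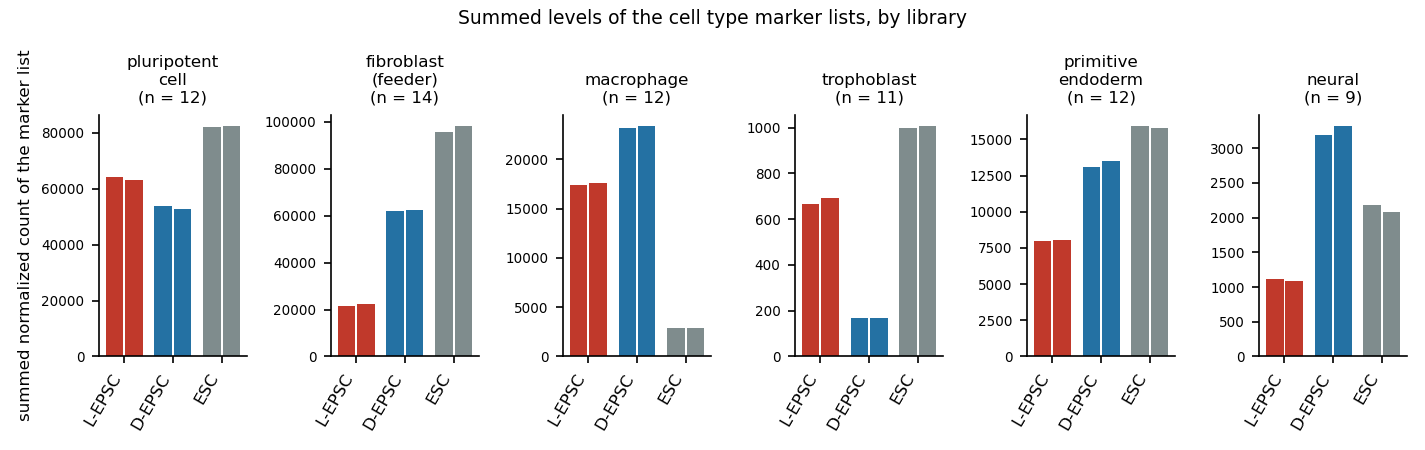
Summed normalized counts (vertical axes, each starting at 0) of the cell type marker lists, with a bar for each library of L-EPSCs, D-EPSCs and ESCs and the number of markers tested in brackets. The L-EPSC bars for fibroblast and macrophage markers lie below the D-EPSC bars, and those for trophoblast markers above them.

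On 2 pathways most called genes differed in the direction opposite to the known effect of an inhibitor listed for L-EPSCs. The MEK inhibitor PD0325901 is known to lower ERK feedback genes and the tankyrase inhibitor XAV939 to lower Wnt target genes, and both are listed for L-EPSCs and not for D-EPSCs. The libraries labelled L-EPSC nevertheless had the higher levels of most called members of both lists, as described next. The labels were kept as given, and every direction below is that of the libraries as labelled. The median of the whole ERK list was 0.15, and 3 µM CHIR99021 is listed for both media. Why the called genes and the listed inhibitors differ in direction was not tested.

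Of 21533 genes tested, 2881 were called (13.4%), with 1033 higher (4.80%) and 1848 lower (8.58%) in L-EPSCs. In every called gene both libraries of a group lay on the same side of both libraries of the other. Over all genes tested, both L-EPSC libraries lay above both D-EPSC libraries in 30.3% and below them in 29.9%. The median log2 difference over all genes was 0. Of the called genes, 620 were higher and 1216 lower by more than 1 on the log2 scale, and 50 and 100 by more than 3. In 143 called genes D-EPSCs were at the floor, and in 221 genes L-EPSCs were.

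The 12 genes highest in L-EPSCs relative to D-EPSCs were Cdx1, Nt5e, Nkx1-2, Eomes, Ggt1, Dnah8, Epha1, Ct55, Etv4, Aire, Egln3 and Axin2. They were ranked by log2 difference among called genes with a mean of at least 100. Cdx1, a caudal homeobox factor and Wnt target (chromosome 18, 61178516 to 61195853, - strand), had 464 and 552 normalized counts in L-EPSC replicates 1 and 2 and 1.02 and 1.96 in D-EPSC replicates 1 and 2. D-EPSCs were at the floor for it, so L-EPSCs were at least 169-fold higher (limma adjusted p = 4.45e-07). ESCs, at 875 and 822, were above both EPSC groups. Nt5e, the ecto-5′-nucleotidase also called CD73, had 331 and 386 in L-EPSCs and 3.06 and 8.81 in D-EPSCs, a log2 difference of 5.83 ± 0.44 (SE). Eomes, a T-box factor of the primitive streak and of trophoblast (chromosome 9, 118387330 to 118395250, + strand), had 453 and 446 in L-EPSCs and 31.7 and 26.4 in D-EPSCs, and the groups were far apart (log2 difference 3.91 ± 0.15, limma adjusted p = 2.03e-06). Ggt1, which breaks down extracellular glutathione, had 220.0 and 224 in L-EPSCs and 20.4 and 17.6 in D-EPSCs. Dnah8, a dynein heavy chain of sperm tails, had 670.3 and 791 in L-EPSCs, 68.4 and 78.3 in D-EPSCs and 916 and 874 in ESCs. Both lay several-fold higher in each L-EPSC library, with log2 differences of 3.48 and 3.30. Aire, the autoimmune regulator known from the thymus, had 297 and 332 in L-EPSCs and 42.9 and 41.1 in D-EPSCs (2.87). Epha1, an ephrin receptor, rose by 3.27 and lost its call without D-EPSC replicate 2 or L-EPSC replicate 1 (adjusted p = 0.054 and 0.0508 in limma).

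In the other direction the 12 largest were Serpina3m, Tnxb, Ccl11, Prelp, Sox21, Cxcl12, Cxcl5, Saa3, Pax6, C3, Steap4 and Ptn. Serpina3m, a serine protease inhibitor of the acute phase (chromosome 12, 105625374 to 105632467, + strand), had 3.08 and 1.15 normalized counts in L-EPSC replicates 1 and 2 and 577 and 545 in D-EPSC replicates 1 and 2. L-EPSCs were at the floor, and the level was at least 172-fold lower there (limma adjusted p = 1.21e-05). Tnxb, an extracellular matrix tenascin, was likewise at the floor in L-EPSCs, at 1.03 and 1.15 against 260.4 and 282, at least 83.0-fold lower. Cxcl12, a chemokine made by stromal cells, had 49.3 and 35.6 in L-EPSCs and 877 and 897 in D-EPSCs (log2 difference -4.37 ± 0.15, limma adjusted p = 9.82e-07). C3, the central complement component, had 59.6 and 54.0 in L-EPSCs and 841 and 959 in D-EPSCs. Saa3, an acute phase apolipoprotein, had 54.5 and 29.9 in L-EPSCs and 740.3 and 665 in D-EPSCs. The L-EPSC libraries were the low ones throughout. Ccl11 and Pax6 lost their calls when either D-EPSC library was left out, with adjusted p of 0.0571 and 0.0591 for Ccl11 and of 0.0527 and 0.0544 for Pax6 in limma. The lower fibroblast and macrophage sums of L-EPSCs moved in the same direction as these genes. ESCs, however, had the highest fibroblast sum and the lowest macrophage sum. ESC means were 9.07 for Serpina3m, 9.57 for Tnxb, 387 for Cxcl12, 491 for C3 and 308 for Saa3, all below D-EPSCs. The part of fibroblasts and macrophages in the result was not tested.

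**Figure D2:**
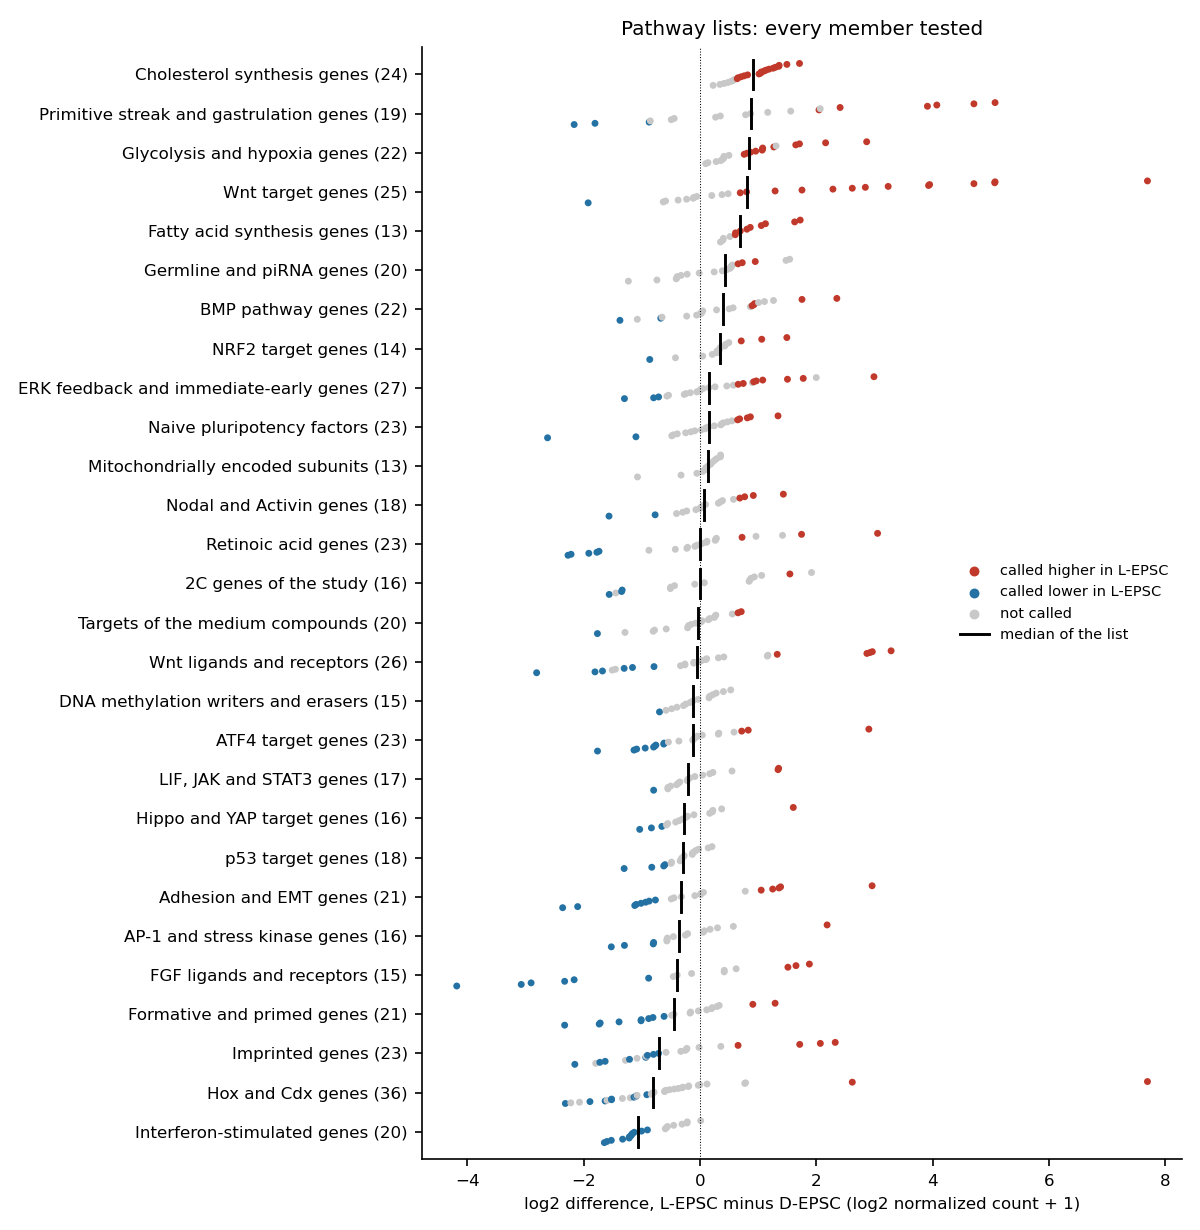
The log2 difference of L-EPSCs minus D-EPSCs (horizontal axis) for every tested member of 28 pathway lists, ordered by the list median (black bar), with the number tested in brackets. Of these lists cholesterol synthesis genes had the highest median as plotted, 0.92, and interferon-stimulated genes the lowest, -1.07, beside 0 over all genes. A further median gave members at the floor in 1 group their lower limit and left out those at the floor in both. By it Wnt target genes stood above the cholesterol genes, at 1.05, with 1 member, Wif1, left out.

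Among 27 ERK feedback and immediate-early genes, 8 were higher and 3 lower in L-EPSCs (40.7% called, beside 13.4% of all genes), with a list median of 0.15. Etv4, an ETS factor induced by FGF and ERK (chromosome 11, 101631056 to 101646685, - strand), had 2977 and 2948 normalized counts in L-EPSC replicates 1 and 2 and 391 and 352 in D-EPSC replicates 1 and 2. It rose most clearly of the list, by 2.99 ± 0.09 (SE) on the log2 scale (limma adjusted p = 5.77e-07). Egr1, the early growth response factor, had 466 and 468 in L-EPSCs and 136 and 135 in D-EPSCs, against 4.49 and 4.61 in ESCs. Both EPSC groups stood far above ESCs, and L-EPSCs were the higher of them (log2 difference 1.78 ± 0.17, limma adjusted p = 0.000188). Spry4, a Sprouty inhibitor of the pathway, had 2872 and 2931 in L-EPSCs and 1800.3 and 1661 in D-EPSCs, against 94.4 and 101 in ESCs. Dusp6, the phosphatase that removes ERK phosphorylation, had 1210.0 and 1168 in L-EPSCs and 763 and 742 in D-EPSCs, against 73.7 and 80.2 in ESCs. The order of the states was the same for both, with ESCs lowest and L-EPSCs highest, and the log2 differences between the EPSC groups were 0.75 and 0.66. Dusp1, a stress-responsive phosphatase, had 736 and 736 in L-EPSCs and 261 and 256 in D-EPSCs and a log2 difference of 1.51 ± 0.06 (SE).

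Other ERK feedback genes did not follow. Spry2 had 971 and 899.9 in L-EPSCs and 1351 and 1366 in D-EPSCs, a log2 difference of -0.54 that was short of the 0.6 asked for. Etv5 had 4914 and 4766 in L-EPSCs and 4310.2 and 4383 in D-EPSCs, at 0.15. Junb, an AP-1 subunit, fell from 633 and 594 in D-EPSCs to 344 and 362 in L-EPSCs (log2 difference -0.79 ± 0.07, limma adjusted p = 0.000121). Fos, its partner, had 51.4 and 50.6 in L-EPSCs and 149 and 108 in D-EPSCs and lost its call without L-EPSC replicate 1 or 2 (adjusted p = 0.0631 and 0.0642 in limma). Ier5, the other gene called lower, lost its call when any 1 of the 6 J1 libraries was left out (adjusted p of 0.078 to 0.316 in limma), and Dusp4, a gene called higher, lost it without L-EPSC replicate 1 or 2 (adjusted p = 0.0693 and 0.0531 in limma). Without either of those libraries 1 list member in place of 3 was called lower.

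**Figure D3:**
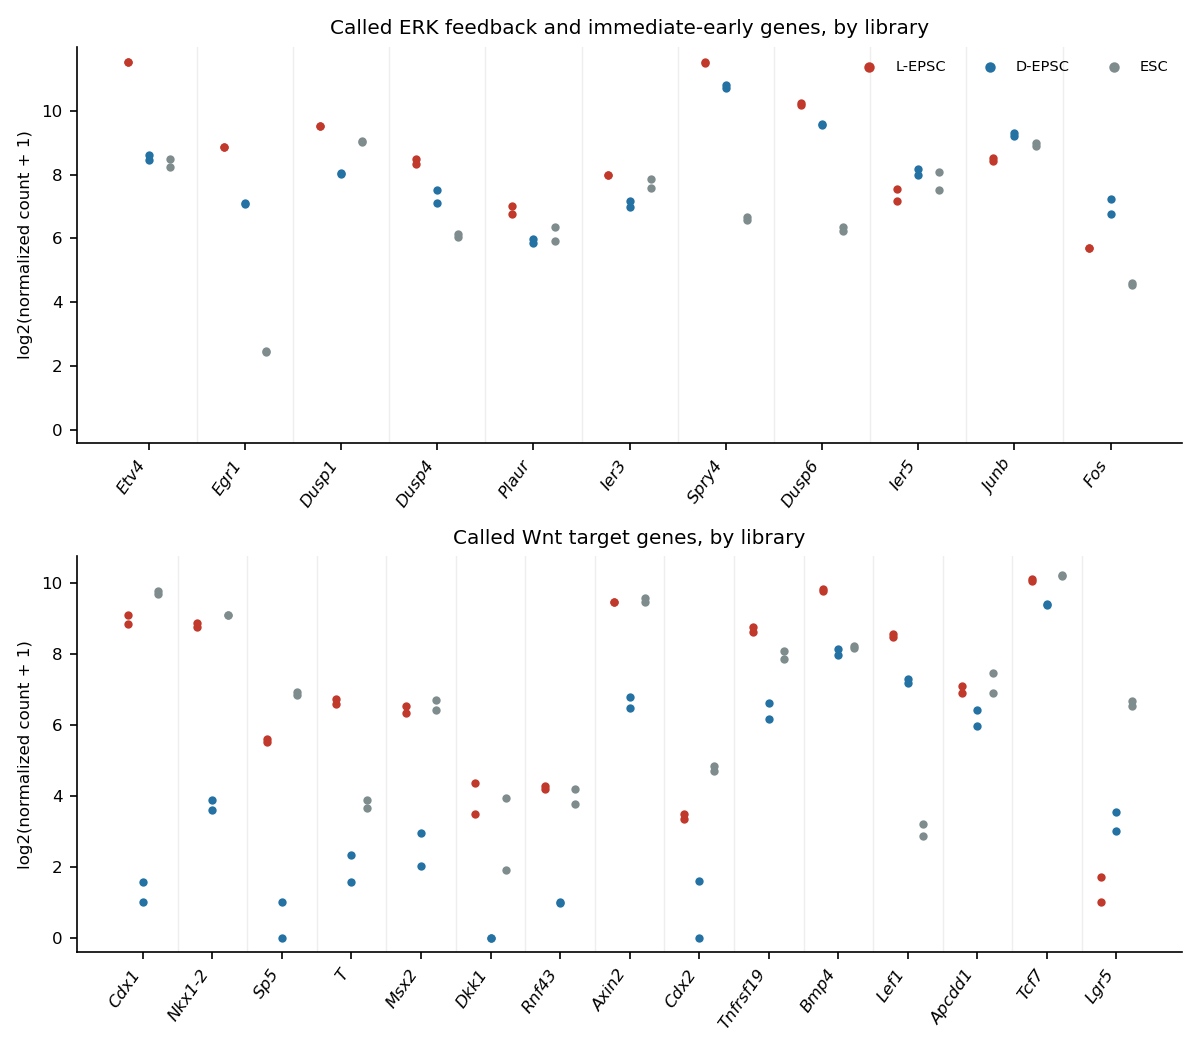
Levels of the called ERK feedback genes (top) and Wnt target genes (bottom) as log2(normalized count + 1), with a point for each library of L-EPSCs, D-EPSCs and ESCs. The L-EPSC points lie above the D-EPSC points for 8 of 11 ERK genes and 14 of 15 Wnt genes.

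Wnt target genes differed more evenly. Of 25 tested, 14 were higher and 1 lower in L-EPSCs (15 of 25 called, beside 13.4% of all genes). The list median was 0.80, and it was 1.05 when genes at the floor in 1 group were set to their lower limit and genes at the floor in both were left out, called the bounded median here. Axin2, a scaffold of the β-catenin destruction complex and a feedback gene of the pathway (chromosome 11, 108781663 to 108812097, + strand), had 708 and 714 normalized counts in L-EPSC replicates 1 and 2 and 109 and 88.1 in D-EPSC replicates 1 and 2, and 767 and 706 in ESCs. L-EPSCs stood at the level of ESCs, and D-EPSCs were lower (log2 difference 2.84 ± 0.11, limma adjusted p = 1.72e-06). Nkx1-2, a homeobox factor of the caudal epiblast, had 471 and 432 in L-EPSCs and 11.2 and 13.7 in D-EPSCs, against 551 and 552 in ESCs. T, the brachyury factor of the primitive streak, had 105 and 96.5 in L-EPSCs and 4.08 and 1.96 in D-EPSCs, against 11.7 and 13.8 in ESCs. Nkx1-2 thus had the pattern of Axin2, whereas T was above both other states in L-EPSCs, with log2 differences of 5.07 and 4.71. Msx2, a homeobox target of Wnt and BMP, had 92.5 and 80.4 in L-EPSCs and 3.06 and 6.85 in D-EPSCs. Tcf7, which encodes a TCF factor itself, had a smaller difference, with 1119.6 and 1070.0 in L-EPSCs and 669.9 and 682 in D-EPSCs (log2 difference 0.69).

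Sp5, a zinc finger factor and direct Wnt target, had 45.2 and 48.3 in L-EPSCs and 1.02 and 0 in D-EPSCs. D-EPSCs were at the floor, so L-EPSCs were at least 15.6-fold higher (limma adjusted p = 8.36e-05). ESCs, at 120 and 115, were above both EPSC groups. Tnfrsf19, a receptor of the TNF family also known as Troy, had 391 and 431 in L-EPSCs and 71.5 and 96.9 in D-EPSCs and a log2 difference of 2.29 ± 0.16 (SE, limma adjusted p = 3.75e-05). Rnf43, the ubiquitin ligase that removes Frizzled receptors, had 18.5 and 17.2 in L-EPSCs and 1.02 and 0.979 in D-EPSCs, at least 5.96-fold higher in L-EPSCs. Lef1 rose by 1.29 and lost its call without D-EPSC replicate 1 or L-EPSC replicate 2 (adjusted p = 0.055 and 0.0519 in limma). The exception was Lgr5, the R-spondin receptor, with 1.03 and 2.30 in L-EPSCs and 7.15 and 10.8 in D-EPSCs, where L-EPSCs were at the floor. Leaving out any 1 library but L-EPSC replicate 2 ended its call (adjusted p of 0.0691 to 0.113 in limma). Notum, a secreted feedback inhibitor, had 433 and 429 in L-EPSCs and 628 and 671 in D-EPSCs, a log2 difference of -0.59 that missed the threshold. Ccnd1 (cyclin D1) had 3346 and 3419 in L-EPSCs and 3550.5 and 3471 in D-EPSCs, a difference of -0.05.

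TCF factors bind a short core that reads CTTTGAT or CTTTGTT. The promoter windows of RefSeq on GRCm38.p6, from 250 bases before to 50 after the start of a gene, were searched for it on either strand. The 2 called Wnt targets of highest mean that hold it are printed here 5′ to 3′ along the gene, since they are members of the list whose level and promoter can both be shown, with the core in capitals (ATCAAAG and AACAAAG are the core on the other strand).
Sp5, chr2:70474673-70474972, + strand: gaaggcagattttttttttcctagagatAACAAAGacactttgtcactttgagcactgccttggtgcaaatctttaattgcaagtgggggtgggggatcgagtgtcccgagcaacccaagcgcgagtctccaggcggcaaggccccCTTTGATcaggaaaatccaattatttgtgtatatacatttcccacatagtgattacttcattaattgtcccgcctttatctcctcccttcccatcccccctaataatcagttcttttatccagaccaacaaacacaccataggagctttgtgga
Tnfrsf19, chr14:61037938-61038237, - strand: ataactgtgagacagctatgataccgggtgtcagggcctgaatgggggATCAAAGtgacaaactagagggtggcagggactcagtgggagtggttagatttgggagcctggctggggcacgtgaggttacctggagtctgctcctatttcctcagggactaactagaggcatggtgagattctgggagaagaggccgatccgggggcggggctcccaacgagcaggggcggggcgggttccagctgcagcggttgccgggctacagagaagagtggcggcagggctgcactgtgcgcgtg
The Sp5 window held the core in 2 places, and the Tnfrsf19 window, the one of its 2 windows with a match, in 1. Windows were given for 18 of the 25 members, and 3 of the 18 held the core, beside 10.6% of all 27025 genes with a window. For the ERK list 18 of 27 members had a window and 2 held a CArG box, the site of serum response factor, beside 1.81% of all genes. Neither of those 2 was called, so no promoter is printed for that list. A match here is a description of the letters and not a bound site.

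Wnt ligands and receptors moved both ways, with 5 of 26 higher and 6 lower in L-EPSCs (42.3% called, beside 13.4% of all genes). The list median was -0.05 (-0.10 bounded). Wnt5b, a non-canonical ligand, had 138 and 79.3 in L-EPSCs and 8.17 and 11.7 in D-EPSCs, a log2 difference of 3.29 ± 0.36 (SE, limma adjusted p = 0.000372). Wnt8a, a ligand of the early streak, had 20.6 and 23.0 in L-EPSCs and 2.04 and 1.96 in D-EPSCs, at least 7.26-fold higher, and lost its call when any 1 EPSC library was left out (adjusted p of 0.0526 to 0.0656 in limma). Sfrp1 and Sfrp2, secreted antagonists that bind Wnt, were on the other side. Sfrp1 had 269 and 285 in L-EPSCs and 890.4 and 883 in D-EPSCs. Sfrp2 had 85.3 and 85.0 in L-EPSCs and 592 and 612 in D-EPSCs. Their log2 differences were -1.67 and -2.81, and 3 Frizzled receptors, Fzd1, Fzd2 and Fzd7, were also lower in L-EPSCs, with log2 differences of -1.30, -1.16 and -0.79. Fzd4 was the receptor that was higher, with 70.9 and 64.4 in L-EPSCs and 30.6 and 22.5 in D-EPSCs, and its call was lost when any 1 EPSC library was left out (adjusted p of 0.0733 to 0.125 in limma). The count of 5 members called higher fell to between 1 and 3 when any 1 of the 6 libraries was left out.

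The genes that encode the targets of the listed compounds differed little. Of 20 tested, 2 were higher and 1 lower (15.0% called, near the 13.4% of all genes), with a median of -0.03 (0.04 bounded). Map2k1, which encodes a MEK kinase, had 1643 and 1677 in L-EPSCs and 1451 and 1346 in D-EPSCs. Gsk3b, the kinase that CHIR99021 inhibits, had 1051 and 1092 in L-EPSCs and 1058 and 1058 in D-EPSCs. Tnks, a tankyrase, had 1363 and 1347 in L-EPSCs and 1255 and 1389 in D-EPSCs. None of these 3 was called. Among the Src family, Src had 1156 and 1029 in L-EPSCs and 650.5 and 681 in D-EPSCs. Lck had 888 and 889.5 in L-EPSCs and 565 and 563 in D-EPSCs, and both were higher in L-EPSCs (log2 differences 0.71 and 0.66). Hrh1 and Chrm2, histamine and muscarinic receptors that dimethindene binds, were at the floor in all 4 libraries.

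AP-1 and stress kinase genes, downstream of JNK and p38, had 1 of 16 higher and 4 lower in L-EPSCs (31.2% called, beside 13.4% of all genes), with a median of -0.35. Maff, a small Maf factor, had 98.7 and 106 in L-EPSCs and 26.5 and 17.6 in D-EPSCs, a log2 difference of 2.19 ± 0.28 (SE). Gadd45g, a growth arrest gene induced by stress, had 92.5 and 70.1 in L-EPSCs and 231 and 236 in D-EPSCs, a log2 difference of -1.52. Jun itself had 287 and 310.3 in L-EPSCs and 440.1 and 381 in D-EPSCs and was not called. Junb and Fos, counted on the ERK list as well, were among the 4 lower, and the lost call of Fos is given above. Mapkapk2, another of the 4, differed by -0.80. It lost its call when the EPSC libraries were fitted alone (adjusted p = 0.051 in limma).

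The tet-off lines give another comparison of L-EPSCs, there against ESCs and without D-EPSCs, in a table normalized on its own. It was fitted as the mean effect over the 3 lines in 12 untreated libraries, and 29.5% of the 23062 genes tested were called, 17.5% as lower in L-EPSCs. On the ERK list 20 of 27 genes were called there, 17 of them lower, with a median of -1.02. Spry4 had a log2 difference of -5.95 in that comparison, Dusp6 of -3.65, Egr1 of -2.23 and Etv4 of -1.74. All 4 were called lower in tet-off L-EPSCs than in tet-off ESCs, and all 4 were higher in J1 L-EPSCs relative to J1 D-EPSCs. On the Wnt list 11 of 25 were called, 7 of them lower, with a median of -0.04, and Axin2 had a log2 difference of -1.36. Of the 2881 genes called in J1, 2767 were also tested in the tet-off lines and 1496 of these (54.1%) had the same sign in both. Across 14050 genes with a mean of at least 10, the J1 and tet-off differences had a Pearson r of 0.04 and a Spearman rho of 0.07, given as a description since genes are not independent replicates. The comparisons differ in the reference state and in genotype, wild-type J1 beside conditional knockout lines kept by a transgene. The labels also give the tet-off ESCs no medium of their own. The comparisons are therefore set side by side without a test of their difference.

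**Figure D4:**
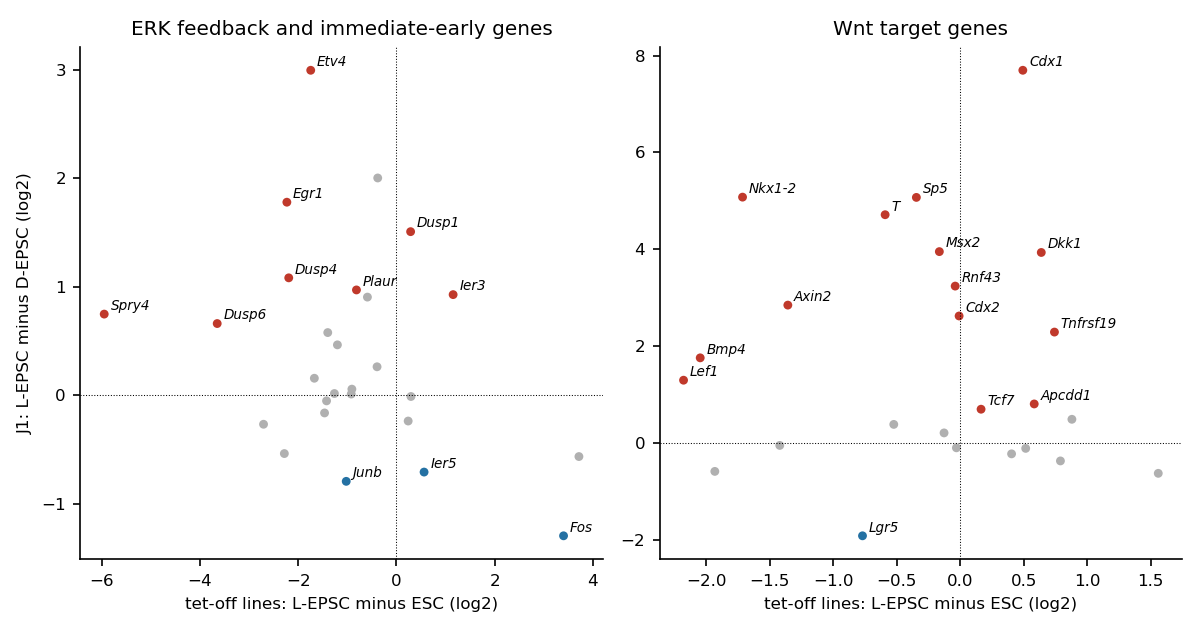
For each ERK feedback gene (left) and Wnt target gene (right), the log2 difference of J1 L-EPSCs minus J1 D-EPSCs (vertical) beside that of tet-off L-EPSCs minus tet-off ESCs (horizontal), with genes called in J1 in red (higher), blue (lower) and grey (not called). Spry4, Dusp6, Egr1, Dusp4 and Etv4 lie above 0 on the vertical and below 0 on the horizontal axis.

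All 24 sterol synthesis genes tested had both L-EPSC libraries above both D-EPSC libraries (beside 30.3% of all genes). Of the 24, 17 were called, all as higher (70.8%, beside 4.80% of all genes), and the median was 0.92. None was lower at an unadjusted p under 0.05 in limma, and none was called lower by edgeR or DESeq2. Insig1, a sterol sensor that is itself a target of SREBP factors, had 1787 and 1784 normalized counts in L-EPSC replicates 1 and 2 and 586 and 682 in D-EPSC replicates 1 and 2. ESCs were at 1576 and 1519, and both D-EPSC libraries were below the L-EPSC libraries (log2 difference 1.50 ± 0.07, limma adjusted p = 4.66e-06). Msmo1, Lss and Fdps, enzymes of the later steps, differed by 1.26, 1.19 and 1.10. Stard4, which carries cholesterol between membranes, had 1679.9 and 1655 in L-EPSCs and 637 and 664 in D-EPSCs. Sqle, the squalene epoxidase, was not called, with 1968 and 1969.8 in L-EPSCs and 1664 and 1698 in D-EPSCs (0.23).

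Fatty acid synthesis went with it. Of 13 genes 9 were called, all as higher in L-EPSCs (69.2%, beside 4.80% of all genes), with a median of 0.69. Again all 13 had both L-EPSC libraries above both D-EPSC libraries, beside 30.3% of all genes. None was lower at an unadjusted p under 0.05 in limma, nor by the edgeR or DESeq2 calls. Scd2, a desaturase that makes monounsaturated fatty acids, had 18292 and 18396 normalized counts in L-EPSC replicates 1 and 2 and 5556 and 5541 in D-EPSC replicates 1 and 2. The difference of 1.72 ± 0.02 (SE) was among the best determined of the list (limma adjusted p = 2.67e-09), and ESCs were higher still, at 30977 and 31224. Scd1 had 4126 and 4369 in L-EPSCs and 1409 and 1334 in D-EPSCs. Elovl6, an elongase, had 3287 and 3259 in L-EPSCs and 1536 and 1613 in D-EPSCs (log2 difference 1.06). Fasn, the fatty acid synthase, and Acaca, the carboxylase before it, had smaller differences of 0.61 and 0.87. That of Fasn fell under the 0.6 asked for without D-EPSC replicate 2 or L-EPSC replicate 1, at adjusted p of 0.0113 and 0.00744 in limma. With a threshold of 1 in place of 0.6, 4 of the 9 stayed called. Srebf1, the factor that drives the pathway, had 1679 and 1699 in L-EPSCs and 1338 and 1305 in D-EPSCs and was not called.

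**Figure D5:**
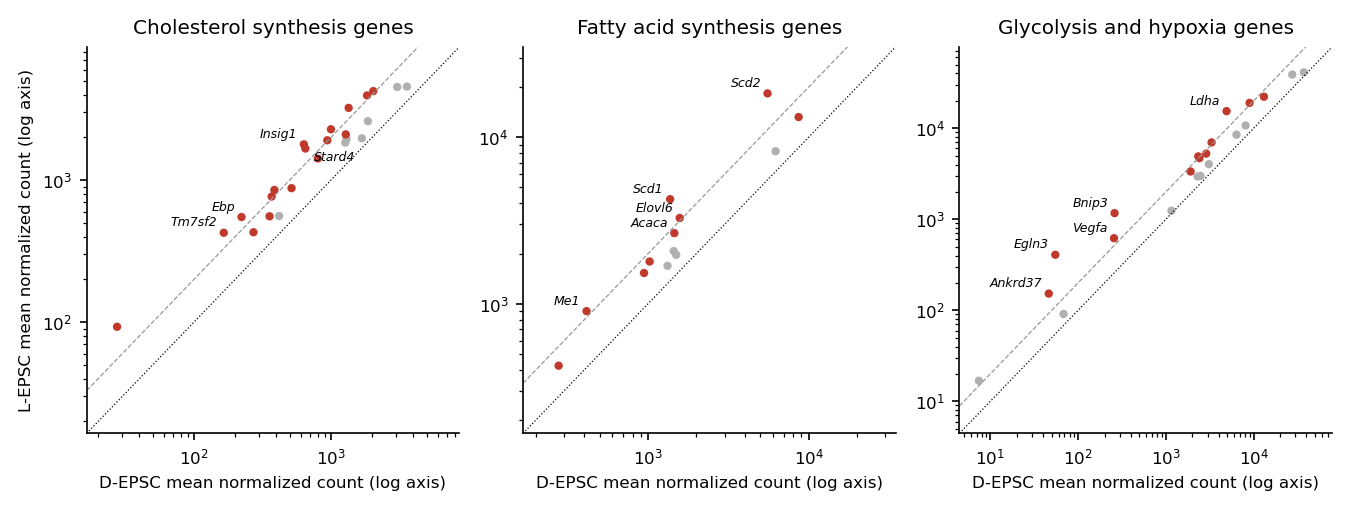
Mean normalized counts in D-EPSCs (horizontal, log axis) and L-EPSCs (vertical, log axis) of each gene of 3 metabolic lists, called genes in red and others in grey. The dotted line marks equal levels and the dashed line a level 2 times as high in L-EPSCs, and all points lie above the dotted line.

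Glycolytic and hypoxia-responsive genes were the other metabolic group that was higher in L-EPSCs. Of 22 tested 12 were called, all as higher (54.5%, beside 4.80% of all genes), with a median of 0.84. Both L-EPSC libraries lay above both D-EPSC libraries in all 22, beside 30.3% of all genes. None was lower at an unadjusted p under 0.05 in limma, and edgeR and DESeq2 called none lower. Ldha, the lactate dehydrogenase subunit of glycolytic cells (chromosome 7, 54096845 to 54110997, + strand), had 15187 and 15656 normalized counts in L-EPSC replicates 1 and 2 and 4843 and 4992 in D-EPSC replicates 1 and 2. At 8127 and 8155 ESCs lay between the EPSC groups, and the log2 difference of L-EPSCs from D-EPSCs was 1.65 ± 0.02 (SE, limma adjusted p = 4.67e-08). Bnip3, a mitophagy receptor induced by HIF, had 1174 and 1163 in L-EPSCs and 260.4 and 260.4 in D-EPSCs. Egln3, a prolyl hydroxylase that marks HIF for degradation and is itself induced by it, had 422 and 394 in L-EPSCs and 57.2 and 52.9 in D-EPSCs. Both were several-fold higher in L-EPSCs, by 2.16 and 2.87 on the log2 scale. The enzymes Aldoa, Pgk1 and Tpi1 differed by 1.08, 1.08 and 1.07. Pdk1, which holds pyruvate out of the citric acid cycle, had 4603 and 4790.1 in L-EPSCs and 2452 and 2377 in D-EPSCs. Slc2a1, the glucose transporter GLUT1, had 5277 and 5272 in L-EPSCs and 2823 and 2943 in D-EPSCs. Vegfa, the HIF-induced growth factor for blood vessels, had 594 and 646 in L-EPSCs and 241 and 272 in D-EPSCs, a log2 difference of 1.27. Gapdh, often used as a reference gene, had 41106 and 41207 in L-EPSCs and 37676 and 37064 in D-EPSCs and a difference of 0.14. It was not called.

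HIF binds DNA at an ACGTG core. That search was chosen after the values had been seen, and it was run on both strands (CACGT is the core on the other strand, and a CACGTG site holds both). The windows of the 2 called members of highest mean that hold it follow, with the core in capitals.
Aldoa, chr7:126799129-126799428, - strand: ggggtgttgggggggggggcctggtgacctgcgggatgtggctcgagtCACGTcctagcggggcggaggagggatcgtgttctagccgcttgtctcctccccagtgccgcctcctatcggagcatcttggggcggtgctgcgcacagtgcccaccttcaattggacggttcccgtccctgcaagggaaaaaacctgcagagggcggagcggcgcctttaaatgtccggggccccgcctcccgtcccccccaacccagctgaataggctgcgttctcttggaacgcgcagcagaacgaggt
Ldha, chr7:46845554-46845853, + strand: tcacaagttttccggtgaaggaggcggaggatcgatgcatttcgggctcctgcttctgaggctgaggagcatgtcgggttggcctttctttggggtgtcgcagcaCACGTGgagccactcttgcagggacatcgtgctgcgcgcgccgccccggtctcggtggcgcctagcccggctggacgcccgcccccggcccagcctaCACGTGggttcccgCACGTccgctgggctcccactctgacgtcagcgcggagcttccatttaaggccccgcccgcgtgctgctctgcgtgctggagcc
Counted on both strands with overlaps, the Ldha window held the core in 5 places and the Aldoa window, the first with a match of the 3 given for that gene, in 1. Of the 21 list members with a window 14 held the core, among them 8 of the 12 called members, beside 21.8% of all genes with a window.

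Targets of ATF4, the factor of the amino acid and unfolded protein responses, were lower in L-EPSCs more often than higher. Of 23 tested, 9 were lower and 3 higher (52.2% called, beside 13.4% of all genes), with a median of -0.12. Atf4 itself had 577 and 623 in L-EPSCs and 1026 and 1025 in D-EPSCs, and 4421 and 4512 in ESCs. Chac1, which degrades glutathione, had 21.6 and 19.5 in L-EPSCs and 71.5 and 72.4 in D-EPSCs. Trib3, a pseudokinase induced by stress, had 157 and 157 in L-EPSCs and 277 and 271 in D-EPSCs. All 3 were low in both L-EPSC libraries, with log2 differences of -0.77, -1.76 and -0.80, and Atf5 and Nupr1 differed by -1.13 and -1.09. Slc7a11, the cystine importer, stood on the other side, with 175 and 151 in L-EPSCs and 18.4 and 23.5 in D-EPSCs (log2 difference 2.91 ± 0.23, limma adjusted p = 6.29e-05). Asns, the asparagine synthetase, was also higher, with 3281 and 3318 in L-EPSCs and 1839 and 1869 in D-EPSCs.

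Interferon-stimulated genes had the lowest median of the 28 pathway lists, -1.07. Of 20 tested, 12 were called, all as lower in L-EPSCs (60%, beside 8.58% of all genes). Both L-EPSC libraries were below both D-EPSC libraries in 19 (beside 29.9% of all genes). None was higher at an unadjusted p under 0.05 in limma, nor by the edgeR or DESeq2 calls. Ifit3, an antiviral protein with tetratricopeptide repeats (chromosome 19, 34658021 to 34663221, + strand), had 1168 and 1179 normalized counts in L-EPSC replicates 1 and 2 and 3593 and 3518 in D-EPSC replicates 1 and 2. ESCs, at 1281 and 1315, were near L-EPSCs, and D-EPSCs were the high state (log2 difference -1.60 ± 0.04, limma adjusted p = 2.10e-07). Ifit1 and Ifit2 differed by -1.52 and -1.64. Ifitm3, a membrane protein that blocks viral entry and is also expressed in pluripotent cells, had 2377 and 2288 in L-EPSCs and 5324 and 5285 in D-EPSCs. Isg15, the ubiquitin-like modifier, had 789.6 and 754 in L-EPSCs and 1681 and 1695 in D-EPSCs. The D-EPSC libraries were about 2 times as high in both, with log2 differences of -1.19 and -1.13. Irf7, the factor that amplifies the response, had 778 and 864 in L-EPSCs and 1877 and 1934 in D-EPSCs (-1.22). Stat2, a transcription factor of the response, had 1516 and 1602 in L-EPSCs and 2362 and 2228 in D-EPSCs, and its difference of -0.56 missed the threshold. Beside this list stand the fibroblast and macrophage sums given above, both lower in L-EPSCs. ESCs had the highest fibroblast sum and the lowest macrophage sum. The part of those cells in the result was not tested.

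Interferon acts through factors that bind TTTC repeated after 2 bases of any kind, which reads GAAA, 2 bases and GAAA on the other strand. This search, on both strands, was also chosen after the values had been seen. The windows of the 2 called members of highest mean that hold it follow, with the match in capitals.
Ifitm3, chr7:141010695-141010994, - strand: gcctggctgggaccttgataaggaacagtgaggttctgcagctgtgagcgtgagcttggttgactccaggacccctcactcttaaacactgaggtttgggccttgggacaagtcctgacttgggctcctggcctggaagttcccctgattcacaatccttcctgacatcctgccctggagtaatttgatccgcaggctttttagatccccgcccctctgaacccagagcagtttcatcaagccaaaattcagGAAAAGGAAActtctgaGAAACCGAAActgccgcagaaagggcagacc
B2m, chr2:122147437-122147736, + strand: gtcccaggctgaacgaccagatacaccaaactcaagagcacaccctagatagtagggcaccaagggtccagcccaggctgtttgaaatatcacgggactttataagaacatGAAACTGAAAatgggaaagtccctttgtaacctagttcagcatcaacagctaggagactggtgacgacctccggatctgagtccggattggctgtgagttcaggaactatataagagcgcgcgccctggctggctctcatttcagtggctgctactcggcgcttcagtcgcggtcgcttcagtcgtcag
The Ifitm3 window held it in 2 places and the B2m window in 1, and 12 of the 18 list members with a window held it, among them 7 of the 12 called members, beside 3.99% of all genes with a window. B2m, the light chain of MHC class I, had 2385 and 2150.2 in L-EPSCs and 4261 and 4204 in D-EPSCs (log2 difference -0.90 ± 0.05, limma adjusted p = 7.80e-06).

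The naive pluripotency list moved both ways, with 5 of 23 genes higher and 2 lower in L-EPSCs (30.4% called, beside 13.4% of all genes) and a median of 0.15. Both L-EPSC libraries were above both D-EPSC libraries in 14 members and below them in 7, beside 30.3% and 29.9% of all genes. The count below was near the share of all genes. Nanog, a core pluripotency factor, had 4615 and 4363 in L-EPSCs and 2787 and 2801 in D-EPSCs, against 10085 and 10129.7 in ESCs. Its difference between the EPSC groups was 0.68 ± 0.03 (limma adjusted p = 3.93e-06). Tfcp2l1, a naive factor downstream of LIF and Wnt, had 3484 and 3325 in L-EPSCs and 1353 and 1328 in D-EPSCs, against 14748 and 14588 in ESCs. It was lower in both EPSC states than in ESCs, and D-EPSCs were the lowest (log2 difference 1.34 ± 0.03, limma adjusted p = 2.33e-07). Dppa2 and Dppa5a, genes confined in adults to germ cells, were higher in L-EPSCs by 0.87 and 0.81. Tfap2c, an AP-2 factor of naive cells and germ cells, was lower, with 455 and 426 in L-EPSCs and 939 and 952 in D-EPSCs (log2 difference -1.10). Dppa3, known as Stella, had 21.6 and 10.3 in L-EPSCs and 105 and 90.1 in D-EPSCs and lost its call when either D-EPSC library was left out (adjusted p = 0.0838 and 0.0721 in limma), which leaves 1 member lower. Esrrb, an orphan nuclear receptor of the naive network, had 6544 and 6521 in L-EPSCs and 5040.3 and 5022 in D-EPSCs and was not called.

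Genes of the formative and primed states were lower in L-EPSCs in 9 of 21 cases and higher in 2. The share called was 52.4%, beside 13.4% of all genes, and the list median was -0.44. Zic2, a zinc finger factor of formative cells, had 545 and 476 normalized counts in L-EPSC replicates 1 and 2 and 1679.8 and 1704 in D-EPSC replicates 1 and 2. L-EPSCs were at the level of ESCs (568 and 580.1), and D-EPSCs were the high state (log2 difference -1.73 ± 0.07, limma adjusted p = 2.05e-06). Otx2, which leads the exit from the naive state, had 541 and 517 in L-EPSCs and 887 and 965 in D-EPSCs, against 117 and 106 in ESCs. Both EPSC states were above ESCs for Otx2, D-EPSCs the more so (-0.81). Sall2, a zinc finger factor, had 191 and 191 in L-EPSCs and 633 and 625 in D-EPSCs. Grhl2, an epithelial factor, had 84.3 and 87.3 in L-EPSCs and 233 and 220.3 in D-EPSCs. Their log2 differences were -1.71 and -1.39. Fgf5, the classical marker of this state, was low in both, at 3.08 and 2.30 in L-EPSCs and 25.5 and 11.7 in D-EPSCs. Its call as lower was lost when any 1 library but D-EPSC replicate 2 was left out (adjusted p of 0.0649 to 0.11 in limma). Without D-EPSC replicate 1 or L-EPSC replicate 2 the list had 1 member called higher in place of 2.

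FGF ligands and receptors had 3 of 15 higher and 6 lower in L-EPSCs (60% called, beside 13.4% of all genes). The median was -0.39 (-0.14 bounded). Fgf1, a ligand that binds all FGF receptors, had 8.22 and 9.19 in L-EPSCs and 171 and 179 in D-EPSCs, a log2 difference of -4.18 ± 0.37 (SE, limma adjusted p = 0.000121). Fgfr2, a receptor, had 20.6 and 19.5 in L-EPSCs and 174 and 178 in D-EPSCs. Fgf15, an endocrine ligand, had 20.6 and 24.1 in L-EPSCs and 179 and 167 in D-EPSCs. All of these were low in both L-EPSC libraries, and the log2 differences of Fgfr2 and Fgf15 were -3.07 and -2.90. Fgfr4 had 57.6 and 62.1 in L-EPSCs and 16.3 and 20.6 in D-EPSCs, higher in L-EPSCs by 1.65. Fgf4, the main ligand of mouse ESCs, had 1260.4 and 1268 in L-EPSCs and 1803 and 1669 in D-EPSCs and missed the threshold (-0.46). Leaving out D-EPSC replicate 1 or either L-EPSC library left 3 of the list called lower in place of 6, and leaving out D-EPSC replicate 2 or either L-EPSC library left 1 called higher in place of 3.

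In the BMP list 5 of 22 genes were higher in L-EPSCs and 2 lower (31.8% called, beside 13.4% of all genes). The list median was 0.40 (0.50 bounded). Bmp4 had 912 and 887 normalized counts in L-EPSC replicates 1 and 2 and 283 and 249.6 in D-EPSC replicates 1 and 2, a log2 difference of 1.76 ± 0.08 (SE, limma adjusted p = 4.08e-06). Id3, an inhibitor of bHLH factors induced by BMP, had 260.1 and 242 in L-EPSCs and 138 and 125 in D-EPSCs. Smad6, the inhibitory Smad, had 108 and 93.1 in L-EPSCs and 48.0 and 55.8 in D-EPSCs. Both were higher in L-EPSCs, by 0.93 and 0.94. The count of 2 members lower fell to 1 or 0 when any 1 EPSC library was left out.

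Nodal and Activin genes had 4 of 18 higher in L-EPSCs and 2 lower (33.3% called, beside 13.4% of all genes), with a median of 0.07. Lefty1 and Lefty2, paired antagonists and targets of Nodal, moved apart. Lefty2 had 1076 and 1062 in L-EPSCs and 391 and 398 in D-EPSCs, a log2 difference of 1.44 ± 0.04 (SE). Lefty1 had 286 and 217 in L-EPSCs and 769 and 708 in D-EPSCs, a difference of -1.56 ± 0.13. Tdgf1, the Nodal coreceptor Cripto, had 7888 and 8068 in L-EPSCs and 4683 and 4671 in D-EPSCs (0.77). Without D-EPSC replicate 1 or L-EPSC replicate 1 the list had 2 members higher in place of 4, and without D-EPSC replicate 2 or either L-EPSC library it had 1 lower in place of 2.

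Retinoic acid genes had 3 of 23 higher and 5 lower in L-EPSCs (34.8% called, beside 13.4% of all genes), with a median of 0.00 (-0.01 bounded). Cyp26b1, which degrades retinoic acid, had 37.0 and 34.5 in L-EPSCs and 169.5 and 169 in D-EPSCs. Cyp26a1, which does the same, had 14.4 and 17.2 in L-EPSCs and 3.06 and 0 in D-EPSCs. These related enzymes went in opposite directions, Cyp26b1 with a log2 difference of -2.21 ± 0.18 (SE) and Cyp26a1 at least 5.27-fold higher in L-EPSCs. Cyp26a1 lost its call without either ESC or either L-EPSC library (adjusted p of 0.103 to 0.15 in limma). Crabp2, which carries retinoic acid to its receptor, and Dhrs3, which reduces retinal, were lower, with log2 differences of -1.77 and -1.73. The count of 3 higher fell to 1 or 0 when any 1 EPSC library was left out, and that of 5 lower fell to 3 without D-EPSC replicate 1.

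Primitive streak and gastrulation genes had 6 of 19 higher in L-EPSCs and 3 lower (47.4% called, beside 13.4% of all genes). The list median was 0.87 (0.48 bounded). Beside Eomes, T and Nkx1-2, the genes called higher were near the floor. Sox17, an endoderm factor, had 10.3 and 24.1 in L-EPSCs and 0 and 0 in D-EPSCs, at least 5.74-fold higher. Hand1, a bHLH factor of mesoderm and trophoblast, had 11.3 and 8.04 in L-EPSCs and 0 and 2.94 in D-EPSCs and lost its call when any 1 library but D-EPSC replicate 2 was left out (adjusted p of 0.134 to 0.243 in limma). Foxa2, an endoderm factor, had 2.06 and 4.60 in L-EPSCs and 0 and 0 in D-EPSCs and lost it without any 1 of the 6 libraries (adjusted p of 0.0508 to 0.144 in limma). Snai1, the repressor of E-cadherin, was lower, with 81.2 and 87.3 in L-EPSCs and 156 and 154 in D-EPSCs (-0.87), and without D-EPSC replicate 1 the list had 1 member lower in place of 3.

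Hox and Cdx genes had 2 of 36 higher and 8 lower (27.8% called, beside 13.4% of all genes), with a median of -0.80 (-0.81 bounded). Cdx1 and Cdx2 made up the higher ones, Cdx2 with 10.3 and 9.19 in L-EPSCs and 2.04 and 0 in D-EPSCs and a call that was lost when any 1 library but D-EPSC replicate 1 was left out (adjusted p of 0.0505 to 0.138 in limma). The lower ones were Hox genes at low levels. Hoxc8, for example, had 23.6 and 17.2 in L-EPSCs and 46.0 and 45.0 in D-EPSCs and lost its call without either D-EPSC or either ESC library (adjusted p of 0.0582 to 0.092 in limma). The count of 8 lower fell to between 0 and 4 when any 1 of the 6 libraries was left out.

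Markers of trophoblast and primitive endoderm were called in both directions, and those of neural cells as lower. Trophoblast markers had 5 of 11 higher in L-EPSCs and 1 lower (54.5% called, beside 13.4% of all genes). Their sum was 665 and 694 in L-EPSCs against 166 and 168 in D-EPSCs, and ESCs were highest, at 997 and 1005. Eomes made up most of the sum in L-EPSCs, with 453 and 446, and less of it in D-EPSCs, with 31.7 and 26.4. The 5 fell to 2 or 3 when any 1 of the 6 libraries was left out. Gata3, which defines trophoblast, had 2.06 and 1.15 in L-EPSCs and 6.13 and 7.83 in D-EPSCs. Elf5, which defines its stem cells, had 0 and 0 in L-EPSCs and 0 and 0.979 in D-EPSCs. Neither was far above the floor in any library. The call of Gata3 as lower was lost when any 1 library but L-EPSC replicate 1 was left out (adjusted p of 0.061 to 0.111 in limma). Primitive endoderm markers had 5 of 12 higher in L-EPSCs and 2 lower (58.3% called, beside 13.4% of all genes). Their sum was nevertheless lower in L-EPSCs, at 7976 and 8064 against 13119 and 13520 in D-EPSCs. Gata4, a factor that defines that lineage, had 55.5 and 55.2 in L-EPSCs and 4.08 and 7.83 in D-EPSCs (log2 difference 3.07 ± 0.50, limma adjusted p = 0.00271), and it lost its call without D-EPSC replicate 1 or either L-EPSC library (adjusted p of 0.0716 to 0.0738 in limma). Lama1, a laminin of its basement membrane, had 600.4 and 663 in L-EPSCs and 265 and 289.8 in D-EPSCs. Without any 1 EPSC library the list had 2 or 3 members higher in place of 5. Sparc and Pdgfra, which fibroblasts express too, were lower, with log2 differences of -1.12 and -1.46, as were the fibroblast markers. ESCs had 13039 and 12956 for Sparc and 215 and 208 for Pdgfra. The part of fibroblasts in it was not tested. Of 9 neural markers 3 were called, all as lower in L-EPSCs (33.3%, beside 8.58% of all genes), and 3 were at the floor in both groups. None was higher at an unadjusted p under 0.05 in limma or by the edgeR or DESeq2 calls. Tubb3, a neuronal tubulin, had 665 and 684 in L-EPSCs and 2339 and 2446 in D-EPSCs (-1.82). Neurod1, a bHLH factor of neurons, had 4.11 and 6.90 in L-EPSCs and 38.8 and 43.1 in D-EPSCs. Pax6, also called lower, lost its call when either D-EPSC library was left out, as given above. Sox21, a neural progenitor factor, is not on this list and was named for the size of its difference, so it adds no support. It had 6.17 and 16.1 in L-EPSCs and 239 and 226 in D-EPSCs (-4.40).

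Adhesion and EMT genes had 5 of 21 higher and 8 lower in L-EPSCs (61.9% called, beside 13.4% of all genes). The list median was -0.32 (-0.20 bounded). Krt8, a keratin of simple epithelia, had 98.7 and 117 in L-EPSCs and 41.9 and 39.2 in D-EPSCs. Krt18, its partner in filaments, had 97.7 and 82.7 in L-EPSCs and 37.8 and 31.3 in D-EPSCs. The pair rose together, by 1.39 and 1.36. Epcam, an epithelial adhesion molecule of ESCs, went against them, with 818 and 706 in L-EPSCs and 1727 and 1582 in D-EPSCs (log2 difference -1.12 ± 0.08, limma adjusted p = 3.86e-05). S100a4, a calcium-binding protein of mesenchymal cells, had 205 and 232 in L-EPSCs and 907 and 971 in D-EPSCs (-2.10). It is also on the fibroblast list, whose sum went the same way between these groups. ESCs had 132 and 131 for S100a4 and the highest fibroblast sum. The part of fibroblasts in this was not tested. Vim, the mesenchymal filament vimentin, had 11632 and 11867 in L-EPSCs and 11516 and 11746 in D-EPSCs and a difference of 0.01. Cdh1, E-cadherin itself, had 4307 and 4458 in L-EPSCs and 4165 and 4232 in D-EPSCs and a difference of 0.06. The 5 higher fell to 3 when any 1 library but D-EPSC replicate 2 was left out, and the 8 lower fell to 4, 3 and 5 without D-EPSC replicate 1, D-EPSC replicate 2 and L-EPSC replicate 1.

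Of 23 imprinted genes, which are expressed from the copy of 1 parent, 4 were higher and 8 lower in L-EPSCs. The share called was 52.2%, beside 13.4% of all genes, and the list median was -0.71 (-0.65 bounded). H19, a non-coding RNA expressed from the maternal copy (chromosome 7, 149761434 to 149764048, - strand), had 886 and 965 normalized counts in L-EPSC replicates 1 and 2 and 4130.5 and 4086 in D-EPSC replicates 1 and 2. Igf2, the growth factor expressed from the paternal copy of the same locus, had 343 and 363 in L-EPSCs and 1166 and 1165 in D-EPSCs. Both were lower in both L-EPSC libraries (log2 differences -2.15 ± 0.05 and -1.72 ± 0.06, limma adjusted p = 2.10e-07 and 1.21e-06), as were Meg3 and Rian of the Dlk1 locus, with log2 differences of -0.90 and -0.71. Plagl1, a zinc finger factor, had 614 and 583 in L-EPSCs and 116 and 120.4 in D-EPSCs, against 3178 and 3024 in ESCs. Peg10, a retrotransposon-derived gene needed in placenta, had 4241 and 4055 in L-EPSCs and 1258 and 1264 in D-EPSCs, against 557 and 588 in ESCs. Both were higher in L-EPSCs, by 2.33 and 1.72, with ESCs above both EPSC states for Plagl1 and below them for Peg10. Phlda2, which limits placental growth, had 329 and 292 in L-EPSCs and 83.7 and 63.6 in D-EPSCs (2.07). H19 and Igf2 are also abundant in embryonic fibroblasts, whose markers moved the same way, and the part of those cells was not tested.

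DNA methylation writers and erasers had 1 of 15 called, a share of 6.7% against 13.4% of all genes, with a median of -0.12. The gene was Tet3, an oxidase of methylcytosine, with 252 and 232 in L-EPSCs and 407 and 377 in D-EPSCs (-0.69), and without L-EPSC replicate 1 there were 2 called. None was called higher by limma, edgeR or DESeq2, and 5 were higher at an unadjusted p under 0.05. Germline and piRNA genes had 3 of 20 called (15.0%, near the 13.4% of all genes called in either direction). All 3 were higher in L-EPSCs, beside 4.80% of all genes, and the median was 0.43. None was called lower by limma, edgeR or DESeq2, and 1 was lower at an unadjusted p under 0.05. The 3 were Ddx4, Mov10l1 and Stk31, and each lost its call without either D-EPSC library or L-EPSC replicate 1 (adjusted p of 0.102 to 0.166 in limma). Ddx4 and Mov10l1 lost it without L-EPSC replicate 2 as well (0.0794 and 0.139), and Stk31 without either ESC library (0.0762 and 0.0761). The list of genes of the 2-cell stage is the study's own, and no source used here says whether it was picked on these libraries, so its counts are not taken as independent evidence. Of 16 tested 1 was higher and 3 lower in L-EPSCs (25% called, beside 13.4% of all genes). There were 7 members at the floor in both groups, and the median was -0.01 (0.38 bounded). Without either D-EPSC library none of the 3 was called lower by limma, and without either L-EPSC library 2 members were higher in place of 1.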

How the data were processed

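RNA-seq libraries of J1 L-EPSCs, D-EPSCs and ESCs, 2 of each, were analysed with 12 untreated libraries of the tet-off lines. The submitters' processing notes name Trim Galore 0.6.4, STAR 2.7.9a, HTSeq 0.11.2 and DESeq2 4.1.1 (as written there) and the builds mm9 and NCBIM37, and the strand setting of the counting was not given in the sources used here. The deposited values are a signal per gene that the authors made by dividing read counts by the DESeq2 size factor of each library. For J1 there are 23095 genes and for the tet-off lines 25476, in separate tables that were each normalized alone. Multiplying by the size factors gave whole reads, within 0.05, for 100% of the J1 values. The 6 J1 libraries held 11612919 to 15069899 reads on genes, and a group with 3 reads or fewer in each library was taken as at the floor. Counting error above the floor enters the tests only as part of the spread between libraries.

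The 21533 genes that had 2 or more reads over the J1 libraries were fitted in limma 3.58.1 with a mean-dependent trend, on log2(normalized count + 1), with all 3 J1 states in 1 fit, and p-values were adjusted by Benjamini-Hochberg over all genes. A log2 difference with this pseudocount understates the change of low genes. Calls needed an adjusted p under 0.05 and a log2 difference beyond 0.6. An exact permutation test of 2 against 2 libraries cannot go below p = 0.333, so none was used. The alternatives tried were count tests on the recovered reads (the quasi-likelihood test of edgeR 4.0.16 and DESeq2 1.42.0), other scalings, pseudocounts and filters, a threshold of 1, the EPSC libraries alone, a replicate block and each library left out. Scripts were tested on simulated data.

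Pathway and marker lists (650 entries, of which 636 were tested in J1 and 14 were not analysed in it) and the comparison itself were chosen with earlier results of these data known. Genes named are the 12 largest in each direction with a mean of at least 100, up to 4 called members of each list in each direction with a mean of at least 50, and further members that define or summarise a list. Promoter windows came from RefSeq tables on GRCm38.p6 and were matched by symbol, while gene positions are those of NCBIM37. No deposited column of the authors' own comparisons was used. R 4.3.3 and Python 3.11.15 were used.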

Additional observations from a re-analysis of the deposited data

How the results depend on the processing

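The 24 genes of largest difference and all called list members, 252 genes together, were followed through 16 alternatives, and none of them changed direction. Of the 4019 values that had an adjusted p, 3549 kept the call and 470 lost it. The call held throughout for 121 genes, and 86 lost it under an alternative other than the threshold of 1. Named genes that were not called were not followed. With that threshold the count of called genes went from 2881 to 1836 (620 higher and 1216 lower in L-EPSCs), that of called list members from 235 to 154 and that of the tet-off comparison from 6806 to 4056, since fewer genes can pass a higher threshold. Leaving out 1 J1 library, which leaves a group with a lone library assumed to vary like the others, gave 1913 to 2310 called genes, 691 to 839 higher and 1222 to 1471 lower. D-EPSC replicate 2 was the library that moved the count most, to 1913, of which 1222 were lower. In the tet-off lines the range was 6403 to 6550. On the recovered reads edgeR called 1088 genes higher and 1950 lower (3038 in all), and DESeq2 called 919 and 1705 (2624 in all). TMM scaling gave 1041 and 1827 and median centring 1073 and 1779. A pseudocount of 0.1 gave 1060 and 1832, a mean of at least 10 gave 1038 and 1867, no filter gave 1033 and 1839, and the EPSC libraries alone gave 833 and 1443. The counts of called members of the cholesterol, glycolysis and interferon lists stayed within a factor of 1.5 under every alternative, and the ERK list had 4 in place of 8 members higher with the threshold of 1.

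The replicate numbers do not pair the samples, as deviations of libraries with the same number had correlations of -0.0093, -0.00819 and -0.00127 over 14255 genes. With the number as a replicate block 1004 genes were called higher and 1785 lower. Depth limits what can be said of genes at low counts. At the floor of 3 reads the fold is a lower limit. Calls of low genes, such as Wnt8a at the floor and Gata4 above it, were lost as well when 1 library was left out.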

Other observations

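Of 14 NRF2 target genes, which answer oxidative stress, 3 were higher and 1 lower in L-EPSCs (28.6% called, beside 13.4% of all genes), with a median of 0.34. Nqo1, a quinone reductase, had 808 and 862 in L-EPSCs and 297 and 294 in D-EPSCs, a log2 difference of 1.50 ± 0.06 (SE, limma adjusted p = 1.90e-06). The metallothionein Mt2 had 1489.7 and 1448 in L-EPSCs and 679 and 726 in D-EPSCs (1.06), and Ephx1, an epoxide hydrolase, was the lower one, with 333 and 383 in L-EPSCs and 684 and 617 in D-EPSCs (-0.86). Of 18 p53 target genes 4 were called (22.2%, beside 13.4% of all genes called in either direction). All 4 were lower in L-EPSCs, beside 8.58% of all genes, and the median was -0.30. None was called higher by limma, edgeR or DESeq2, and 2 were higher at an unadjusted p under 0.05. Btg2, an antiproliferative gene, had 283 and 265 in L-EPSCs and 486 and 488 in D-EPSCs (-0.83). Cdkn1a, the p21 inhibitor of the cell cycle, had 2207 and 2404 in L-EPSCs and 2394 and 2285 in D-EPSCs and a difference of -0.02. The 4 lower fell to 1 and 2 without D-EPSC replicates 1 and 2.

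Of 16 Hippo and YAP genes 1 was higher and 3 were lower (25% called, beside 13.4% of all genes), with a median of -0.28. Tead4, the TEAD factor known for its role in trophectoderm, had 218 and 192 normalized counts in L-EPSC replicates 1 and 2 and 60.2 and 73.4 in D-EPSC replicates 1 and 2, against 734 and 753 in ESCs. It was the member that was higher in L-EPSCs (log2 difference 1.61 ± 0.12, limma adjusted p = 6.10e-05), and Axl, a receptor kinase and YAP target, was lower, with 724 and 710.2 in L-EPSCs and 1270.3 and 1286 in D-EPSCs (-0.83). The 3 lower fell to 1 without D-EPSC replicate 1 or either ESC library. Of 17 LIF and STAT3 genes 2 were higher and 1 lower (17.6% called, near the 13.4% of all genes), with a median of -0.20. The lower one was Junb, which is also on the ERK list. Pim1, a kinase gene induced by STAT3, had 1152 and 1186 in L-EPSCs and 481 and 434 in D-EPSCs (1.35), while Socs3, the feedback inhibitor of the pathway, had 931 and 999 in L-EPSCs and 1386 and 1441 in D-EPSCs, a difference of -0.55 that missed the threshold. Without L-EPSC replicate 2 there were 3 lower in place of 1. None of 13 mitochondrially encoded subunits was called by limma, edgeR or DESeq2, with 6 higher and none lower at an unadjusted p under 0.05 in limma and a median of 0.14.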
